A study of Mus musculus with 8 samples.

Results

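The MHC class II presentation genes, their transcriptional coactivator Ciita and the costimulatory ligands Cd80 and Cd86 were examined in CD11b+ cells from the brains of CSF1 OE and control mice. The 9 genes were listed by name (H2-Aa, H2-Ab1, H2-Eb1, Cd74, Ciita, H2-DMa, H2-DMb1, Cd86 and Cd80), and all 9 were found among the 20308 genes of the count files. Within this set, transcripts of the class II chains were on average less abundant in CSF1 OE mice, the H2-DM transcripts were on average more abundant, and the costimulators had similar means. None of the 8 genes that could be tested was called differentially expressed. By mouse, high correlations joined H2-Aa with H2-Ab1, H2-Eb1 and Cd74, H2-DMa with H2-DMb1, and Cd86 with Cd80.

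MHC class II molecules are pairs of an alpha and a beta chain that display peptides from endocytosed proteins to CD4+ T cells. The invariant chain, encoded by Cd74, blocks the peptide groove until it is degraded in the endosome, where H2-DM then exchanges the remaining fragment for peptide. CIITA is the coactivator that class II promoters depend on, and CD80 and CD86 supply the second signal to the T cell through CD28. In the healthy brain, parenchymal microglia carry little class II, whereas some macrophages of the meninges, perivascular spaces and choroid plexus, as well as dendritic cells and B cells, carry more.

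CSF1 OE mice overexpress a transgene for secreted CSF1, with EGFP encoded alongside it, in a subset of GFAP+ cells under the tTA and TRE system, and CSF1 is the growth factor on which microglia depend. The 4 CSF1 OE and the 4 control mice were F1 offspring of C57Bl/6 and CD1 parents, aged p14 or p15 without the age of each mouse being given, and which transgenes the controls carried is not stated. Cells were pulled from the right hemisphere with magnetic beads against CD11b after myelin removal with Percoll, and every mouse gave 1 RNA library. Csf1 itself ranged from 139 to 364 CPM (counts scaled to library size) in control and from 167 to 400 CPM in CSF1 OE mice. Its log2 fold change was 0.19 (SE 0.33, edgeR adjusted p = 0.796). It therefore gave no check of the labels in CD11b+ cells, which are not the cells meant to express the transgene.

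Libraries held between 12908195 and 15475488 counts in control mice and between 12053280 and 14356538 in CSF1 OE mice. The 12 markers of homeostatic microglia were abundant in every mouse, with sums of 25774 to 46055 CPM in control animals and 33345 to 46625 CPM in CSF1 OE mice. The lowest sum belonged to control mouse 1934, whose library also had the highest sum of oligodendrocyte lineage markers at 5503 CPM. Genes were tested with edgeR's quasi-likelihood test over 13407 genes and called at an adjusted p under 0.05 with a fold change below 0.7 or above its inverse. Of these genes, 59 were called, or 0.44%, with 0.388% called higher and 0.0522% called lower in CSF1 OE mice. In these bulk samples, fewer cells of one type and less RNA per cell cannot be told apart.

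Class II promoters are known for a conserved pair of elements, an X box bound by RFX and an inverted CCAAT motif bound by NF-Y, and the 300 bases around the start of transcription are shown for 4 genes of the set so that genes of the chains can be set beside those of H2-DM. The sequences are those of RefSeq on GRCm38.p6, from 250 bases before to 50 after the start, written along the gene's own strand: H2-Aa (chr17:34287774-34288073, minus strand), H2-Eb1 (chr17:34305617-34305916, plus strand), H2-DMb1 (chr17:34152941-34153240, plus strand) and the first of the 2 listed starts of H2-DMa (chr17:34122582-34122881, plus strand). Capitals mark a core of the X box, searched as TNGNAAC, and the inverted CCAAT, searched as ATTGG, where the second followed the first after 10 to 40 bases on either strand.
H2-Aa: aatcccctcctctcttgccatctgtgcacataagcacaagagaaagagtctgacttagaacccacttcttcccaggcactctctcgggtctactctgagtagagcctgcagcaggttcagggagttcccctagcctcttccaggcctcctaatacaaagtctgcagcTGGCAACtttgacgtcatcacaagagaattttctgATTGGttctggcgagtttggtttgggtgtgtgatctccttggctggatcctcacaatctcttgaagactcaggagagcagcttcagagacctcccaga
H2-Eb1: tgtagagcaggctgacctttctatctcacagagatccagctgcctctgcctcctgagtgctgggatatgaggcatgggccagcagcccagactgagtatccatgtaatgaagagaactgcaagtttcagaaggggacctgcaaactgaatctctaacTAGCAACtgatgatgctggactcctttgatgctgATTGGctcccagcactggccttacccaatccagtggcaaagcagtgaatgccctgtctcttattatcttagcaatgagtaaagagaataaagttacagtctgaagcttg
H2-DMb1: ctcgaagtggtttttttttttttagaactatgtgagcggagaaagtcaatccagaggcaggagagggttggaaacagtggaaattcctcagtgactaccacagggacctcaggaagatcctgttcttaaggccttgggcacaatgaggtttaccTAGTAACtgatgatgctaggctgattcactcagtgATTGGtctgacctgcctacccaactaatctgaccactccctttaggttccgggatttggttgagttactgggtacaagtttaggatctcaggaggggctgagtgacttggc
H2-DMa: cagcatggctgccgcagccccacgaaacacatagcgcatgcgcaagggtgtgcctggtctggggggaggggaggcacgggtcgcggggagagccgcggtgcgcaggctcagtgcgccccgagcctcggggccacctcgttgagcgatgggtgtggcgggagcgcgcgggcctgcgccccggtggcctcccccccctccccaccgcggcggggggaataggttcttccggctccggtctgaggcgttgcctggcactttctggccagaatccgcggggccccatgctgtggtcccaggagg

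The pair was present in H2-Aa, H2-Eb1 and H2-DMb1, on the strand of the gene in each case. In H2-Aa the core began 83 bases before the start and the inverted CCAAT 48 bases before it, with 28 bases between them. In H2-Eb1 these distances were 93, 59 and 27 bases, and in H2-DMb1 they were 96, 61 and 28 bases. Neither of the 2 listed starts of H2-DMa nor the listed start of Cd80 held the pair. The windows of H2-DMa and Cd80 lie within the span of their gene. Other starts of these genes were not searched, so a pair elsewhere would have been missed. Promoters of 5 of the 9 genes were in the reference table, and H2-Ab1, Cd74, Ciita and Cd86 had no entry in it. Among all 32851 promoters of the table, 403 held the pair (1.23%), although the core alone was present in 35.2% and a CCAAT on either strand in 37.4%. A promoter with the pair was found both at genes with a lower mean (H2-Aa, H2-Eb1) and at a gene with a higher mean (H2-DMb1) in CSF1 OE mice. The letters searched were chosen after the sequences had been seen, and a match describes the sequence alone.

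H2-Aa encodes the alpha chain of I-A, the class II molecule that all common laboratory strains carry. Its transcripts were at 9.06, 43.9, 27.8 and 22.6 CPM in control mice 1827, 1872, 1874 and 1934, and at 3.78, 4.48, 2.72 and 12.7 CPM in CSF1 OE mice 1931, 1932, 1936 and 2019. CSF1 OE mice 1931, 1932 and 1936 lay below every control mouse, but mouse 2019 lay above control mouse 1827, so the genotypes overlapped. The means were 25.8 ± 14.4 CPM in control animals and 5.91 ± 4.55 CPM in CSF1 OE mice (SD, n = 4 each), 4.38 times as high in control. The log2 fold change was -2.14 (SE 0.57), and it was not called (edgeR, adjusted p = 0.123). H2-Aa lies at chr17:34282744-34287823 on the minus strand of GRCm38 (ENSMUSG00000036594.15).

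H2-Ab1, at chr17:34257689-34269419 on the plus strand, encodes the beta chain that pairs with H2-Aa. Its levels were 9.47, 29.2, 21.7 and 18.4 CPM in control mice 1827, 1872, 1874 and 1934, against 5.01, 13.95, 5.31 and 16.5 CPM in CSF1 OE mice 1931, 1932, 1936 and 2019. Mice 1932 and 2019 reached the range of the control mice, and mice 1931 and 1936 did not. The means of 19.7 ± 8.17 and 10.2 ± 5.89 CPM differed by a log2 fold change of -0.95 (SE 0.46, adjusted p = 0.336). The difference for the beta chain was thus smaller than its partner's, although the difference between the 2 genes was not tested.

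H2-Eb1, at chr17:34305867-34316674 on the plus strand (ENSMUSG00000060586.11), encodes the beta chain of I-E, the other classical class II molecule of the mouse, which C57BL/6 mice do not display because their alpha chain gene is defective. It was at 6.24, 25.3, 20.5 and 7.38 CPM in control mice 1827, 1872, 1874 and 1934 and at 2.87, 1.54, 1.4 and 4.16 CPM in CSF1 OE mice 1931, 1932, 1936 and 2019. Every CSF1 OE mouse lay below every control mouse, which made H2-Eb1 the one gene of the 9 whose genotypes did not overlap. Over all genes tested, 10.3% did not overlap between the genotypes, and 3.44% had every CSF1 OE mouse below every control mouse. The means were 14.9 ± 9.50 and 2.50 ± 1.28 CPM, with a log2 fold change of -2.58 (SE 0.55) that missed the threshold (edgeR, adjusted p = 0.0690). H2-Eb1 had the lowest fold change of the 10 chain and chaperone genes tested.

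The summed CPM of H2-Aa, H2-Ab1 and H2-Eb1, given as a description with no test, was 24.8, 98.4, 69.97 and 48.4 in control mice 1827, 1872, 1874 and 1934 and 11.7, 20.0, 9.47 and 33.3 in CSF1 OE mice 1931, 1932, 1936 and 2019. Only mouse 2019 exceeded the lowest control mouse, which was 1827. The mean sum was 60.4 ± 31.3 CPM in control animals and 18.6 ± 10.8 CPM in CSF1 OE mice. Per kilobase of transcript, a scale on which genes can be compared, the mean control levels were 22.9 CPM for H2-Aa, 16.2 for H2-Ab1 and 8.90 for H2-Eb1, and the levels in CSF1 OE mice were 5.24, 8.401 and 1.498. On this scale H2-Aa was above H2-Ab1 in all 4 control mice and below it in all 4 CSF1 OE mice, which was not tested.

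Cd74, on chromosome 18, was the most abundant of the class II genes in control mice, with 58.3 CPM per kilobase, and had 34.6 in CSF1 OE mice. Single mice had 42.6, 121, 89.8 and 75.3 CPM among controls 1827, 1872, 1874 and 1934 and 42.1, 49.9, 47.8 and 55.0 CPM among CSF1 OE mice 1931, 1932, 1936 and 2019. CSF1 OE mice were close to one another, with an SD of 5.35 CPM against 32.6 CPM in control mice, and they overlapped with the control group through mouse 1827 alone. The log2 fold change was -0.75 (SE 0.27, adjusted p = 0.212). Relative to the 3 summed chains, Cd74 amounted to 1.23 to 1.72 times their CPM in control mice and 1.65 to 5.05 times in CSF1 OE mice.

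Ciita, at chr16:10480059-10528418, was barely detected, with 6, 10, 15 and 7 counts in control mice 1827, 1872, 1874 and 1934 and 4, 1, 3 and 6 counts in CSF1 OE mice 1931, 1932, 1936 and 2019. These counts correspond to 0.403 to 1.13 CPM in control animals and 0.0734 to 0.531 CPM in CSF1 OE mice, where a count of 3 is worth 0.177 to 0.265 CPM depending on the library. The genotypes overlapped, since mouse 2019 lay above mice 1827 and 1934. In all, 38 counts in control against 14 in CSF1 OE mice gave a ratio of 0.423, with a 95% interval of 0.212 to 0.799 that covers counting error only. Ciita did not pass the filter on low counts and was not tested with the other genes. A two-sided exact permutation test of its log2 CPM over the mice gave p = 0.114.

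The 2 chains of H2-DM had higher means in CSF1 OE mice. H2-DMa, at chr17:34119541-34139101, had 46.2, 30.2, 22.1 and 10.3 CPM in control mice 1827, 1872, 1874 and 1934 and 81.0, 32.8, 65.7 and 58.7 CPM in CSF1 OE mice 1931, 1932, 1936 and 2019. CSF1 OE mice 1931, 1936 and 2019 lay above all control mice, and mouse 1932 lay below control mouse 1827. The means of 27.2 ± 15.1 and 59.6 ± 20.1 CPM differed by a log2 fold change of 1.13 (SE 0.42), which was not called (edgeR, adjusted p = 0.235).

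H2-DMb1, its partner at chr17:34153072-34160230, had 27.6, 26.5, 22.3 and 12.6 CPM in control mice 1827, 1872, 1874 and 1934 and 39.7, 24.7, 42.3 and 31.0 CPM among CSF1 OE mice 1931, 1932, 1936 and 2019. The same 3 CSF1 OE mice exceeded all control mice. The log2 fold change was 0.63 (SE 0.26, adjusted p = 0.266). H2-DMb1 has a near-identical neighbour, H2-DMb2, between which RSEM divides shared reads, so the split between them is uncertain. H2-DMb2, which was looked up for that reason, had a log2 fold change of 0.67 (SE 0.41, adjusted p = 0.443).

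**Figure D1:**
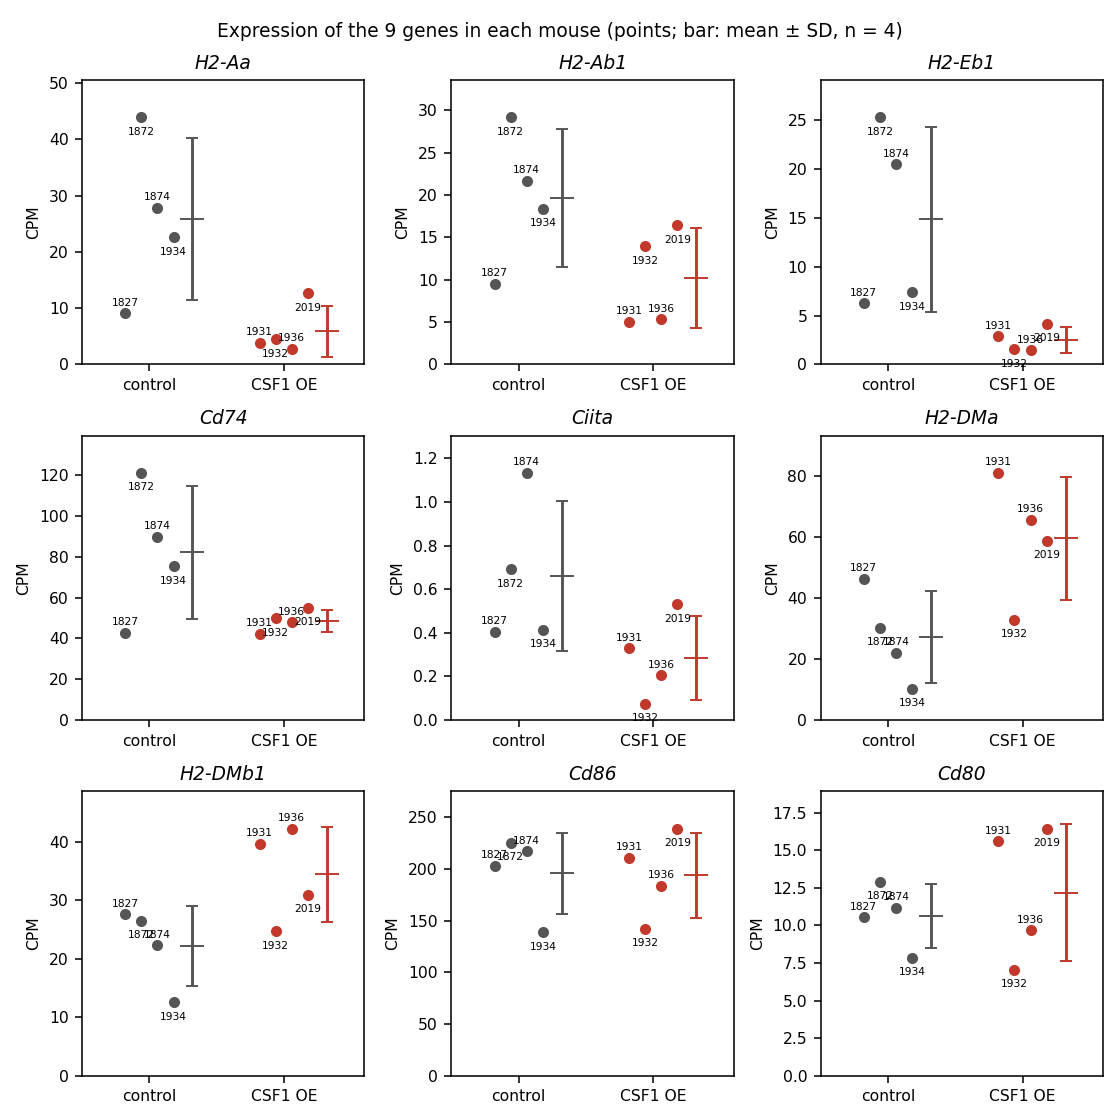
Each panel plots 1 gene, with CPM on the vertical axis, a labelled point for each of the 4 control and 4 CSF1 OE mice, and the mean ± SD beside them. All 4 CSF1 OE mice sit below the control mice only for H2-Eb1, whereas 3 of the 4 sit above all control mice for H2-DMa and H2-DMb1.

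With these differences of opposite sign, the ratio of H2-DMa to H2-Aa CPM was 5.10, 0.688, 0.793 and 0.454 in control mice 1827, 1872, 1874 and 1934 and 21.5, 7.33, 24.1 and 4.64 in CSF1 OE mice 1931, 1932, 1936 and 2019. Mouse 1827 was again the control mouse that reached into the range of the CSF1 OE mice, here above mouse 2019. On the scale per kilobase, H2-DMa was at 16.4 and 35.9 CPM, and H2-DMb1 at 15.9 and 24.5 CPM, in control and CSF1 OE mice.

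Cd86 was the most abundant gene of the set, at 77.2 CPM per kilobase in control and 76.4 in CSF1 OE mice. Its values of 203, 225, 217 and 139 CPM in control mice 1827, 1872, 1874 and 1934 overlapped throughout with the 211, 142, 184 and 239 CPM of CSF1 OE mice 1931, 1932, 1936 and 2019. The log2 fold change was -0.01 with an SE of 0.19 (edgeR, adjusted p = 0.972). Cd80 had 10.5, 12.9, 11.2 and 7.86 CPM in control mice 1827, 1872, 1874 and 1934 and 15.6, 7.05, 9.67 and 16.5 CPM among CSF1 OE mice 1931, 1932, 1936 and 2019. The range of CSF1 OE mice enclosed that of control mice, and the log2 fold change was 0.20 (SE 0.28, adjusted p = 0.752).

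None of the 8 tested genes was thus called by edgeR, beside 0.44% of all genes. At an unadjusted p under 0.05 there were 5 of the 8, of which 3 were lower (H2-Aa, H2-Eb1 and Cd74) and 2 were higher (H2-DMa and H2-DMb1), where 16.5% of all genes were under this threshold, 6.44% as lower and 10.1% as higher. limma on the normalized values also called 0, beside 0.776% of all genes (0.649% as higher and 0.127% as lower). DESeq2 called 2 of them, H2-Aa (adjusted p = 0.00367) and H2-Eb1 (adjusted p = 9.91e-05), with the fold changes almost unaltered. DESeq2 called 2.54% of all genes, 1.6% as higher and 0.939% as lower. Over the full list of 10 chain and chaperone genes, 6 had a higher and 4 a lower fitted value, with a median log2 fold change of 0.29 beside -0.03 for all genes. The 4 of these that are not in the set of 9 (H2-Eb2, H2-DMb2, H2-Oa and H2-Ob, named after their values were seen) were all higher and none was called. Control mouse 1827 decided other calls. Without it, edgeR called H2-Eb1 (log2 fold change -2.83, adjusted p = 0.0474) and Cd74 (-0.97, adjusted p = 0.0453), and 164 genes were called in all, or 1.21%, with 0.207% called lower.

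The animal numbers fall into ranges that overlap with genotype, although the labels do not say that a range marks a litter or a day. Among mice 1931 to 1936, H2-Aa was at 22.6 CPM in the control mouse 1934 and at 2.72 to 4.48 CPM in the 3 CSF1 OE mice. Among the other mice it was at 9.06 to 43.9 CPM in 3 control mice and at 12.7 CPM in CSF1 OE mouse 2019, so the genotypes did not separate there. With a term for this range, H2-Aa had a log2 fold change of -1.85 (SE 0.51, adjusted p = 0.0475) and H2-Eb1 of -1.995 (SE 0.49, adjusted p = 0.0362), both of which were then called. In that fit H2-DMa was at 1.64 (SE 0.49, adjusted p = 0.0604), and 1273 genes were called (9.5%), 2.25% of all genes as higher and 7.24% as lower, which turns the balance of directions of the fit without the term.

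**Figure D2:**
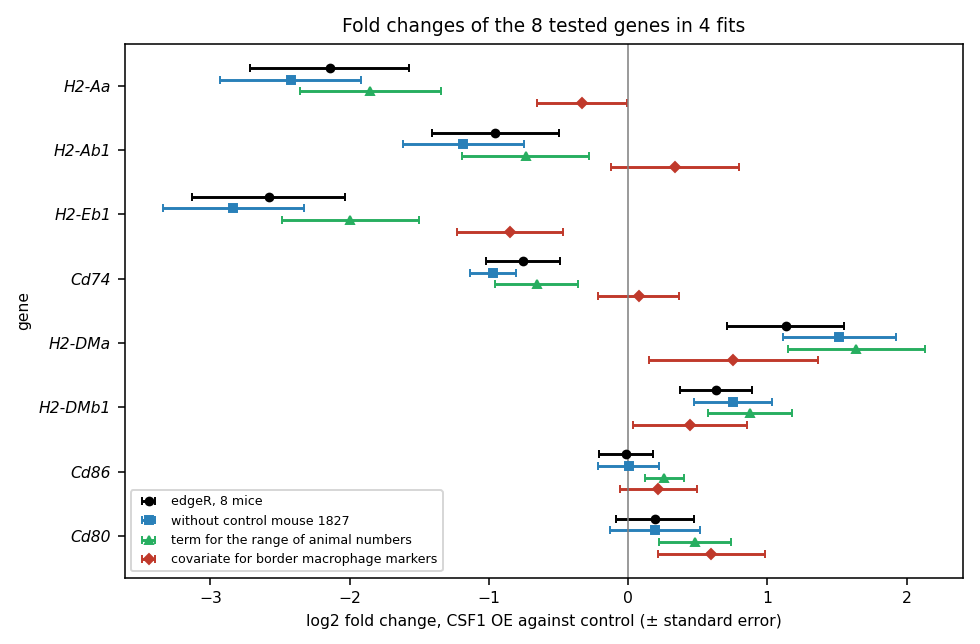
The horizontal axis gives the log2 fold change of CSF1 OE against control mice with its standard error for the 8 tested genes, in the fit of all 8 mice, without control mouse 1827, with a term that splits the mice by animal number, and with a covariate for border macrophage markers. H2-Aa and H2-Eb1 lie below 0 and H2-DMa above 0 in all 4 fits, while H2-Ab1 and Cd74 move to values above 0 with the covariate.

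Agreement by mouse was measured for all 36 pairs of the 9 genes as the correlation of log2 CPM over the 8 mice, with two-sided exact permutation tests over 40320 pairings and adjustment over the 36 pairs. All pairs share the same 8 libraries. Of the correlations, 25 were positive and 11 negative, and 8 had an adjusted p under 0.05. H2-Aa correlated with H2-Eb1 (r = 0.94, rho = 0.95, exact permutation p = 0.000769, adjusted p = 0.0138), with H2-Ab1 (r = 0.90, rho = 0.95, exact permutation p = 0.00273, adjusted p = 0.0202) and with Cd74 (r = 0.89, rho = 0.88, exact permutation p = 0.00300, adjusted p = 0.0202). Cd74 also passed with H2-Ab1 (r = 0.85, rho = 0.98) and with H2-Eb1 (r = 0.84, rho = 0.74), each at adjusted p = 0.0432 for r in the exact permutation test, whereas H2-Ab1 with H2-Eb1 did not (r = 0.75, rho = 0.83, exact permutation adjusted p = 0.123). Rank correlations had an adjusted p of 0.0103 for H2-Aa with H2-Eb1 and with H2-Ab1 and for H2-Ab1 with Cd74, of 0.0326 for H2-Aa with Cd74, and of 0.110 for H2-Eb1 with Cd74, all by exact permutation. Of all other genes tested, 0.216% had a higher correlation with H2-Aa than H2-Eb1 had, and 0.679% a higher one than H2-Ab1.

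Among control mice the order was also shared. In control mice the order was 1872, 1874, 1934 and 1827 from high to low for H2-Aa, H2-Ab1, H2-Eb1 and Cd74 alike. In CSF1 OE mice, 2019 was the highest for each of these genes and for Ciita, but the order of the other CSF1 OE mice differed between genes. When every value was centred on the mean of its genotype, r was 0.88 for H2-Aa with H2-Ab1, 0.82 with H2-Eb1 and 0.82 with Cd74. In all, 4 pairs then had an adjusted p under 0.05 in the exact permutation test, among them H2-Aa with H2-Ab1 (adjusted p = 0.0313) and H2-Ab1 with Cd74 (r = 0.76, adjusted p = 0.0313). Leaving out the 2 mice farthest from the median of H2-Aa, 1872 and 1936, gave r = 0.80 with H2-Ab1, 0.88 with H2-Eb1 and 0.88 with Cd74. The correlation of Cd74 with H2-Eb1 rested on mice 1872 and 1874, as r was 0.43 without them, whereas H2-Ab1 with Cd74 gave 0.96 without mice 1931 and 1936. With 4 mice in each range of animal numbers, no correlation was computed within a range.

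Ciita correlated best with H2-Eb1 (r = 0.89, rho = 0.88, exact permutation p = 0.00337, adjusted p = 0.0202), and less with H2-Aa (r = 0.79, rho = 0.88, adjusted p = 0.0646), Cd74 (r = 0.66, rho = 0.74, adjusted p = 0.197) and H2-Ab1 (r = 0.54, rho = 0.79, adjusted p = 0.289), all by exact permutation. Without the 2 mice farthest from the median of the other gene, r was 0.80 with H2-Eb1, 0.77 with H2-Aa, 0.23 with Cd74 and 0.54 with H2-Ab1. By rank, H2-Eb1 and H2-Aa each had an adjusted p of 0.0326 in the exact permutation test. The correlation with H2-Eb1 was 0.83 within genotypes and no longer passed there (exact permutation adjusted p = 0.125), and it also failed to pass without any one of mice 1872, 1874, 1934, 1931 or 1932 (exact permutation adjusted p from 0.0536 to 0.0969). These values rest on at most 15 counts of Ciita in a library.

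H2-DMa and H2-DMb1 had the highest correlation of the set (r = 0.97, rho = 0.95, exact permutation p = 0.000124, adjusted p = 0.00446), and it was 0.94 within genotypes and 0.89 without mice 1931 and 1934. Of the other genes, 0.0224% correlated better with H2-DMb1 than H2-DMa did, and 0.209% better with H2-DMa than H2-DMb1 did. Their order in control mice, 1827, 1872, 1874 and 1934, put first the mouse that was last for the chains. Against H2-Aa, H2-Ab1, H2-Eb1 and Cd74 the H2-DM genes gave r between -0.69 and -0.45, and none of these 8 pairs passed. Within genotypes the correlations of H2-Eb1 with H2-DMa and H2-DMb1 were 0.18 and 0.24, opposite in sign to those over all mice.

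Cd86 and Cd80 also correlated with each other (r = 0.90, rho = 0.90, exact permutation p = 0.00226, adjusted p = 0.0202), with r = 0.77 without mice 1932 and 1934. Of the other genes, 2.10% correlated better with Cd86 than Cd80 did, and 0.977% better with Cd80 than Cd86 did. Cd86 and Cd80 had the same order of mice as each other in both genotypes, with 1872, 1874, 1827 and 1934 among control and 2019, 1931, 1936 and 1932 among CSF1 OE mice. With H2-Aa their correlations were 0.24 and 0.12, with the H2-DM genes 0.53 to 0.58, and with Ciita 0.64 and 0.51. Within genotypes they were 0.81 and 0.82 with Ciita, 0.72 and 0.73 with H2-Eb1, and 0.77 and 0.64 with H2-DMa. None of these pairs passed, over all mice or within genotypes. Mouse 1934, lowest of the controls for Cd86, Cd80, H2-DMa and H2-DMb1, was also the control mouse with the lowest sum of homeostatic microglia markers, and the part of this in the agreement was not tested.

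**Figure D3:**
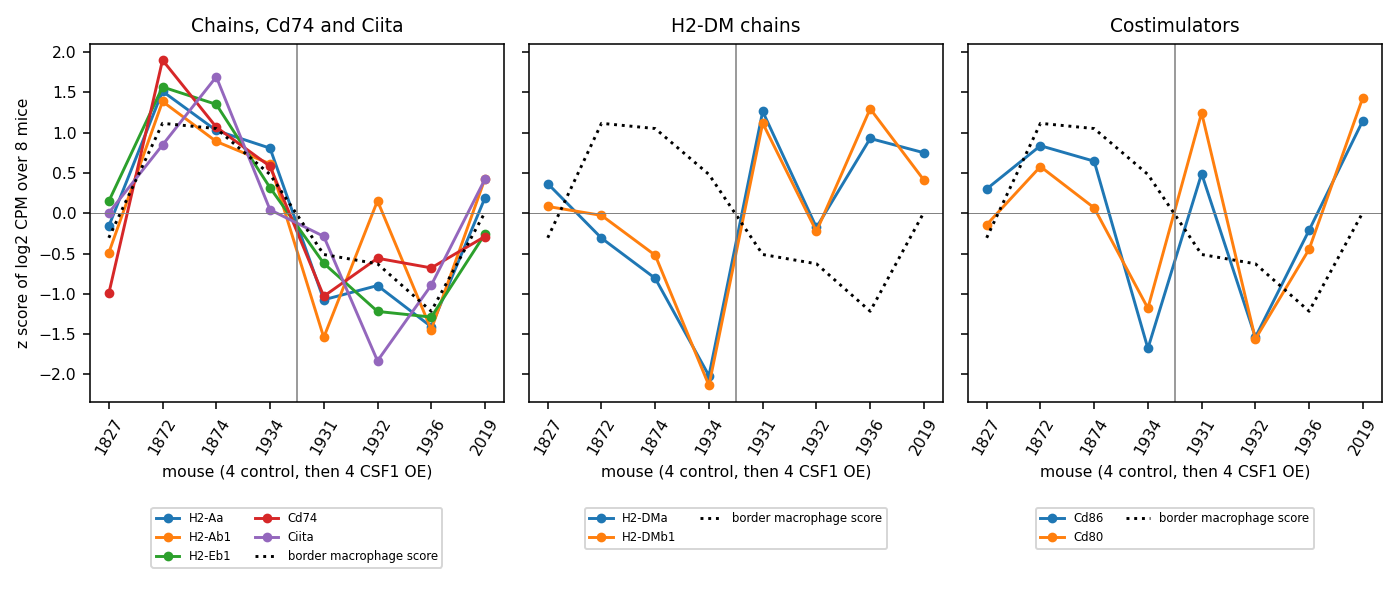
The vertical axis is the z score of log2 CPM over the 8 mice, in 3 panels for the class II chains with Cd74 and Ciita, the H2-DM chains and the costimulators, with mice on the horizontal axis and the mean z score of 13 border macrophage markers dotted. In control mice the class II chains have the order of the dotted line. In CSF1 OE mice H2-Eb1 has its order, but H2-Aa and H2-Ab1 do not. H2-Aa and H2-Eb1 are highest in mouse 1872 and lowest in mouse 1936, and H2-Ab1 is lowest in mouse 1931. The H2-DM chains are lowest in mouse 1934.

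**Figure D4:**
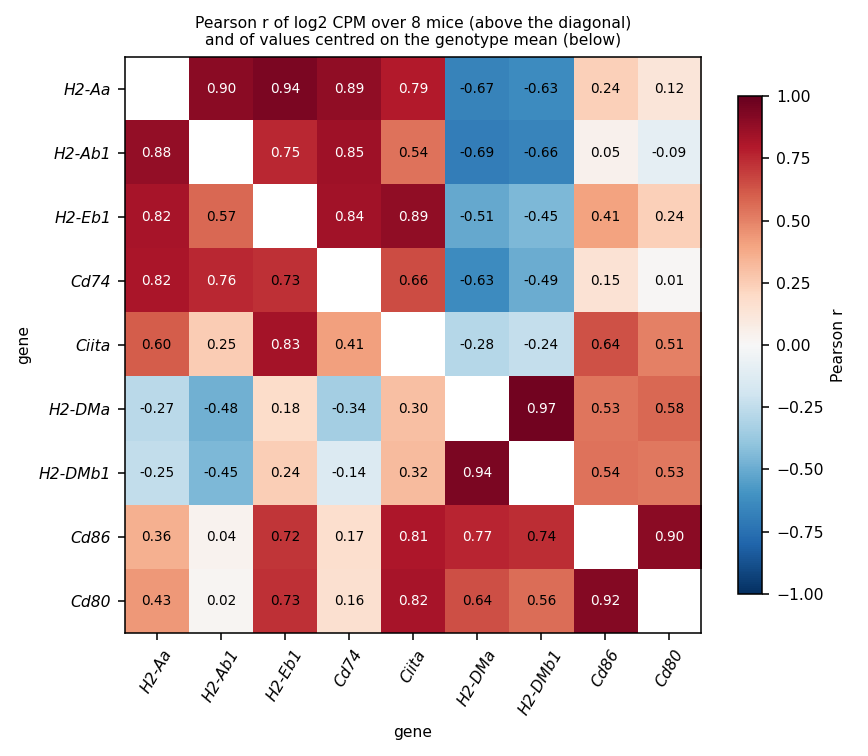
The matrix gives Pearson r of log2 CPM for each pair of the 9 genes, over the 8 mice above the diagonal and after centring on genotype means below it. A block of high values joins H2-Aa, H2-Ab1, H2-Eb1 and Cd74, and high values also join the H2-DM pair (0.97) and the Cd86 and Cd80 pair (0.90).

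The genes most like the mean z score of H2-Aa, H2-Ab1, H2-Eb1 and Cd74 over the 8 mice were Slc26a11 (r = 0.98), Zfp74 (0.98), Ikzf2 (0.98), St8sia6 (0.98) and Igf1 (0.98). These are the highest correlations among the 13407 genes tested, with the genes of the set left aside, and are given as a description. Igf1, a growth factor gene, ranged from 33.8 to 49.8 CPM in control animals and from 28.7 to 40.5 CPM in CSF1 OE mice, and none of the 5 genes was called.

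Markers of border macrophages were also lower on average in CSF1 OE mice. All 13 of them had a negative log2 fold change, with a median of -0.47 beside -0.03 for all genes. Of these, 9 were at an unadjusted p under 0.05, where 6.44% of all genes were lower at this threshold. Neither edgeR nor limma called any of them, where they called 0.0522% and 0.127% of all genes lower. DESeq2 called 3 of them lower (Cd163, Ccl24 and Cd209f), where it called 0.939% of all genes lower. Their summed level was 3096 to 4242 CPM in control animals and 2201 to 3347 CPM in CSF1 OE mice. Cd163, a scavenger receptor of perivascular macrophages, was at 105.6 to 336 CPM in control animals and 89.2 to 124 CPM in CSF1 OE mice (log2 fold change -1.11, SE 0.30, adjusted p = 0.132), and Mrc1, the mannose receptor, at 806 to 1216 and 657 to 1009 CPM (-0.42, SE 0.18, adjusted p = 0.279). The defining markers of these cells were thus well above 0 in every library.

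By mouse, the mean z score of the border macrophage markers was -0.30, 1.12, 1.05 and 0.48 in control mice 1827, 1872, 1874 and 1934, which is the order of mice of the class II chains. In CSF1 OE mice 1931, 1932, 1936 and 2019 it was -0.51, -0.63, -1.22 and 0.01, again with mouse 2019 highest. Among CSF1 OE mice this order was that of H2-Eb1, but not that of H2-Aa, H2-Ab1 or Cd74. All 13 markers correlated positively with the mean z score of the chains and Cd74, with r between 0.56 and 0.94 and a median of 0.82, where the median over all genes was 0.05, that of the homeostatic microglia markers 0.11 and that of 5 neutrophil markers 0.62, all of them positive. The neutrophil markers summed to 42.9 to 92.6 CPM in control animals against 15.02 to 217 CPM, and their part in the levels of the chains was not tested. With the border macrophage score as a covariate, the log2 fold change was -0.33 (SE 0.33) for H2-Aa, 0.34 (SE 0.46) for H2-Ab1, -0.85 (SE 0.38) for H2-Eb1 and 0.076 (SE 0.29) for Cd74. For H2-DMa it was 0.76 (SE 0.61) and for H2-DMb1 0.44 (SE 0.41). In that fit edgeR called 0 genes, with 848 at an unadjusted p under 0.05, and the score itself overlaps with genotype. A change in class II transcripts per cell and a change in the share of border macrophages cannot be told apart in these libraries.

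**Figure D5:**
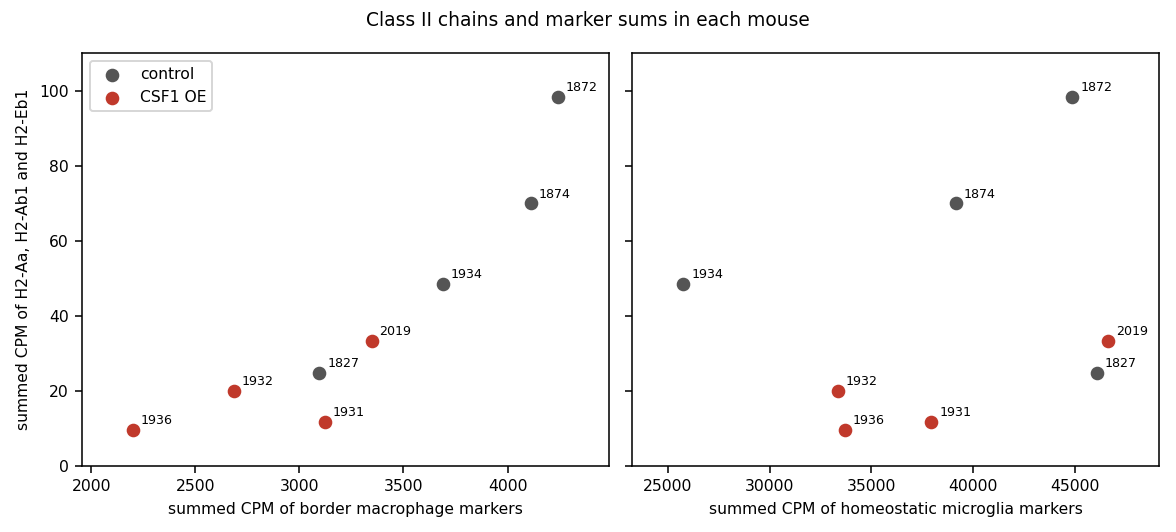
The vertical axis is the summed CPM of H2-Aa, H2-Ab1 and H2-Eb1 in each mouse, against the summed CPM of border macrophage markers (left) and of homeostatic microglia markers (right). On the left, the control mice have the same order in both sums (1872 with 98.4 CPM and 4242 CPM at the top), as do the CSF1 OE mice other than 1931, and on the right mouse 1827, with a marker sum of 46055 CPM, has a class II sum of 24.8 CPM.

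Other cells that carry class II gave a less uniform picture. Of the 11 dendritic cell markers tested, 4 were higher and 7 lower, with sums of 370 to 610 CPM in control animals and 390 to 556 CPM in CSF1 OE mice. Itgax, which encodes CD11c and is also expressed by activated microglia, was called higher (10.3 ± 2.31 against 33.3 ± 12.2 CPM, log2 fold change 1.70, SE 0.27, adjusted p = 0.0431). With the mean z score of the dendritic cell markers as a covariate, the log2 fold change was -1.64 (SE 0.52) for H2-Aa, -0.57 (SE 0.47) for H2-Ab1, -1.68 (SE 0.40) for H2-Eb1 and -0.57 (SE 0.31) for Cd74, and none was called. This score averages markers of opposite direction and ran only from -0.35 in mouse 1936 to 0.27 in mouse 1874. It is therefore a poor measure of dendritic cells, whose part in the levels of the chains was not tested. Clec10a, a lectin gene of dendritic cells and macrophages, followed the chains (r = 0.95 with their mean z score) at 20.6 to 58.2 CPM in control animals and 16.5 to 25.7 CPM in CSF1 OE mice. DESeq2 called Clec10a lower and Itgax higher, where it called 2.54% of all genes. Cd209a gave r = 0.94, at 0.806 to 4.70 CPM in control animals and 0 to 1.24 CPM in CSF1 OE mice. Of the 11 markers, 7 had a positive r, with a median of 0.14. Flt3, a receptor that defines dendritic cells, was at 0.336 to 1.004 CPM in control animals and 0.514 to 1.09 CPM in CSF1 OE mice. The B cell markers Cd79a, Ms4a1 and Pax5 had at most 6 counts in any library, at or near 0. Cd79b and Ebf1, also on the B cell list, were at 7.45 to 18.9 and at 2.39 to 15.5 CPM, with r = 0.64 and 0.29 with the mean z score of the chains and Cd74, and the list summed to 12.6 to 29.4 CPM in control animals against 17.9 to 25.8 CPM. Of 7 monocyte markers 6 were lower, with sums of 557 to 947 CPM in control animals against 289 to 609 CPM, and all 8 endothelial markers were lower, with sums of 615 to 1014 against 306 to 716 CPM. No monocyte or endothelial marker was called by edgeR, and DESeq2 called 1 of each. An unadjusted p under 0.05 was reached by 2 and 4, where 16.5% of all genes were under this threshold. The monocyte marker that DESeq2 called was Plac8, which was higher (edgeR log2 fold change 1.70, SE 0.41, adjusted p = 0.0948) and gave r = -0.82 with the mean z score of the chains and Cd74. Every CSF1 OE mouse was above every control mouse for Plac8, where 6.85% of all genes showed this. The endothelial marker was Ly6c1, which was lower (-0.86, SE 0.24, adjusted p = 0.142). Their median correlations with the mean z score of the chains and Cd74 were 0.48 and 0.35. Their part in the levels of the chains was not tested.

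The regulators of class II transcription other than Ciita were all detected. Of the 12 tested, 7 were higher and 5 lower in CSF1 OE mice and 0 were called by edgeR. Their median log2 fold change was 0.03 beside -0.03 for all genes. An unadjusted p under 0.05 was reached by 3, where 16.5% of all genes were under this threshold. DESeq2 fitted 13 genes of this list, Ciita included, and called 1, which was higher, where it called 1.6% of all genes higher. limma called 0. The lowest value was that of Irf4 (-0.72, SE 0.30, adjusted p = 0.279). Rfx5, a subunit of the complex on the X box, differed by 0.09 (SE 0.10, adjusted p = 0.686).

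Interferon gamma is the classical inducer of Ciita, and 8 genes of its pathway were tested. Of these, 6 were higher and 2 lower, with a median log2 fold change of 0.25, and 0 were called by edgeR. An unadjusted p under 0.05 was reached by 3, all higher, where 10.1% of all genes were higher at this threshold. Gbp2, an interferon-induced GTPase, was highest at 0.70 (SE 0.18, adjusted p = 0.109), and Ifngr1, the ligand-binding receptor chain, was lowest at -0.04 (SE 0.21, adjusted p = 0.941). DESeq2 fitted 10 genes of the pathway and called 2, Gbp2 among them, both higher, where it called 1.6% of all genes higher. limma called 0. Ifng itself had 1 count in 1 library and 0 in the other 7.

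The genes that process antigen for class II were higher on average. Of the 14 tested, 12 were higher and 2 lower, with a median log2 fold change of 0.14, and 0 were called by edgeR or limma. An unadjusted p under 0.05 was reached by 4, all higher, where 10.1% of all genes were higher at this threshold. DESeq2 called 3 (Ctss, Ctsz and Ifi30), all higher, where it called 1.6% of all genes higher. In 4 of the 14 every CSF1 OE mouse was above every control mouse, where 6.85% of all genes showed this. Ctss, the protease that degrades the invariant chain, had the highest fold change (0.77, SE 0.23, adjusted p = 0.161). The lowest was that of March1, a ligase that removes class II from the cell surface (-0.17, SE 0.28, adjusted p = 0.784).

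Among 10 costimulators and inhibitory ligands, Cd86 and Cd80 included, 7 were higher and 3 lower, with a median log2 fold change of 0.46. None was called by edgeR or limma. An unadjusted p under 0.05 was reached by 4, all higher, where 10.1% of all genes were higher at this threshold. DESeq2 fitted 13 genes of this list and called 2, Cd274 and Icosl, both higher, where it called 1.6% of all genes higher. Btnl2, a butyrophilin-like gene beside the class II genes on chromosome 17, had the highest value (3.13, SE 1.11, adjusted p = 0.213). It was at 1.01, 0.346, 0.227 and 3.07 CPM in control mice 1827, 1872, 1874 and 1934 and at 1.40, 16.9, 1.16 and 22.9 CPM in CSF1 OE mice 1931, 1932, 1936 and 2019. Only mice 1932 and 2019 were high, and the other CSF1 OE mice lay within the range of control mice. Cd276 had the lowest value (-0.33, SE 0.17, adjusted p = 0.381). Cd274, which encodes the inhibitory ligand PD-L1 and was chosen after its values were seen, was at 9.99 ± 3.27 CPM in control animals and 25.3 ± 8.395 CPM in CSF1 OE mice without overlap (1.34, SE 0.30, adjusted p = 0.0824). Over all genes tested, 6.85% had every CSF1 OE mouse above every control mouse.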

How the data were processed

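RNA of CD11b+ brain cells was sequenced from 8 mice, with 1 library per mouse, and genotypes were taken from the sample titles. According to the study's methods and the submitters' processing notes, the authors converted reads with bcl2fastq 1.8.4, mapped them to mm10 with Bowtie 1.0.0 and estimated expression with RSEM 1.2.7. The annotation is not given in the sources used here. The deposited per-mouse files hold expected counts per gene symbol without normalization. A second deposited table holds a signal, the same values divided by the authors by 1 size factor per mouse. The library kit does not mark strand, so antisense reads cannot be separated. The mm10 reference is of a C57BL/6 mouse, and each animal had a CD1 parent. Reads of class II alleles unlike the reference can be lost in mapping, and what this did to the counts of each mouse was not tested.

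Expected counts were rounded to whole numbers, with 0 columns left unmapped. The 28 pairs of libraries differed by a chi-square of 14.5 to 86.3 per gene, more than copies of one library would. Genes that passed filterByExpr (13407) were compared with edgeR 4.0.16 in R 4.3.3 (TMM, glmQLFit and glmQLFTest, Benjamini-Hochberg over all genes tested). log2 CPM used a prior count of 2. The method was tested on simulated data. The study's own model, EBSeq, was not run. Alternatives were DESeq2 1.42.0, upper-quartile scaling, the filters of any count and of 10 counts per library, a robust prior, no fold threshold, limma 3.58.1 on log2 of the authors' normalized values plus 1, a term that splits the mice by animal number (1931 to 1936 against the rest), covariates for border macrophage and dendritic cell markers, and each mouse left out in turn. A count of 0 allows up to 3 counts, and such limits cover counting error only. Coordinates and transcript lengths (the longest principal transcript) are from GENCODE M21 on GRCm38, and promoters from RefSeq.

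The 9 genes and the lists were chosen with earlier results of these data known. Genes named are the 9, any called gene and the highest and lowest of each class II pathway list, the 5 genes most like the mean of H2-Aa, H2-Ab1, H2-Eb1 and Cd74, and defining markers of border macrophages, dendritic cells and B cells. Other names were chosen after their values were seen. Some genes that this rule names are not reported here.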

Additional observations from a re-analysis of the deposited data

How the results depend on the processing

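Across the alternatives, H2-Aa, H2-Eb1, H2-DMa, H2-DMb1 and Cd80 kept the sign of their fold change in all 18 fits. H2-Ab1 and Cd74 turned sign with the covariate for border macrophage markers, to 0.34 and 0.076. Cd86, near 0, took values from -0.14 to 0.11 with single mice left out, 0.26 with the term for animal numbers, 0.22 with the border macrophage covariate and 0.25 with the dendritic cell covariate. H2-Aa and H2-Eb1 passed the threshold with DESeq2 (-2.13 and -2.57) and with the term for animal numbers (-1.85 and -1.995), and H2-Eb1 and Cd74 without control mouse 1827. With single mice left out, fold changes ran from -2.82 to -1.76 for H2-Aa, from -2.93 to -2.19 for H2-Eb1 and from -0.97 to -0.51 for Cd74. Ciita gave a fit only with no filter beyond any count (-1.21, edgeR adjusted p = 0.400) and with DESeq2 (-1.23).

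The number of genes called, 59, was 427 with DESeq2, 19 with upper-quartile factors, 104 with limma, 1273 with the term for animal numbers (302 higher and 971 lower, against 52 and 7), 0 with the border macrophage covariate (848 at an unadjusted p under 0.05 in edgeR) and 5 with the dendritic cell covariate. It ran from 3 to 164 with single mice left out, where 3 were called without control mouse 1872 or 1874 and 164 without 1827. The number of correlated pairs, 8, was 4 with values centred on genotype and ran from 1 to 7 with single mice left out. Under centring r was 0.82 for H2-Aa with H2-Eb1 and with Cd74, 0.73 for H2-Eb1 with Cd74 and 0.83 for H2-Eb1 with Ciita, and these 4 no longer passed. Pairs of H2-DMa and H2-DMb1 with H2-Eb1 turned to 0.18 and 0.24, and with Ciita to 0.30 and 0.32. With upper-quartile factors H2-Ab1 and H2-Eb1 with Cd74 were at 0.85 and 0.83 and did not pass. With single mice left out, r ran from 0.86 to 0.98 for H2-Aa with H2-Ab1, 0.91 to 0.96 with H2-Eb1 and 0.84 to 0.94 with Cd74, and 0.80 to 0.88 and 0.74 to 0.93 for H2-Ab1 and H2-Eb1 with Cd74. The cause of these movements was not tested, and a fit without a mouse also has fewer mice. No paired analysis was possible because the labels give no litter or preparation day by which mice could be matched. Depth limited Ciita, with at most 15 counts in a library, most among the 9 genes.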
